A study of Mus musculus with 6 samples.

Results

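The baseline transcriptome of the 12-week WT mouse heart was described from 3 of the 6 hearts of the series, those whose titles carry WT, without any contrast between genotypes. Each was the heart of a male mouse, 12 weeks of age, that carried no transgene, and its total RNA was hybridised with the dye Cy3 to 1 Agilent whole-genome oligonucleotide array. The other 3 hearts came from TG-PKR1 mice, in which the alpha myosin heavy chain promoter drives the prokineticin receptor PKR1 in cardiomyocytes; they were used here only for the spread of the same probes. The mice of the study were kept on a C57BL6/J background. The 3 WT hearts are numbered 1 to 3, and the numbers carry no order and pair nothing. They form 1 group, so no test was made and no p-value is given; all values are descriptions of these 3 hearts, each with its SD or with the value of every heart.

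The adult mouse heart owes most of its volume to cardiomyocytes, which contract by sliding myosin along actin in sarcomeres and cycle calcium through the sarcoplasmic reticulum with each beat. These cells draw most of their ATP from the oxidation of fatty acids in densely packed mitochondria, and store oxygen on myoglobin. Endothelial cells, fibroblasts, pericytes, smooth muscle cells and macrophages lie between them, and fat can lie on the surface of the organ and around its vessels. In RNA of whole hearts, fewer cells of a type and less RNA per cell cannot be told apart.

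Each array held 43379 spots for 41174 probes, of which 245 probes had 10 spots each. The 3 arrays did not read the same range. The saturation level stood at 566978 units on heart 1 and at 65265 and 65266 units on hearts 2 and 3, and the 75th percentile of the spot signal was 11.6, 2.08 and 3.97 times the median local background on hearts 1, 2 and 3. Each heart lay on a slide of its own, so heart, slide and scan cannot be told apart. Signals are given as the log2 of the median pixel intensity of a spot after loess adjustment to the median profile of the 3 arrays, and probes that were not called lay near the bottom of that scale. For example Prokr1 encodes PKR1, the receptor overexpressed in the other hearts, and its probe stood at 5.35, 5.40 and 5.43 in hearts 1, 2 and 3 and was well above background in none of them. Both probes of Prok2, which encodes the ligand prokineticin-2, were likewise above background in no WT heart.

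A probe was kept where the scanner software called it well above background on all 3 hearts. This was met by 19271 of 41174 probes (46.8%) and left 12256 of 19754 named genes with at least 1 kept probe (62.0%). Taken singly, 22188 probes passed on heart 1, 19649 on heart 2 and 23569 on heart 3, whereas 16881 probes passed on no heart. Of the remainder, 2451 passed on 1 heart and 2571 on 2 hearts. Kept probes had a median level of 7.39 log2 units, with the 10th and 90th percentiles at 5.94 and 10.65 and the brightest at 16.64. The hearts ranked the kept probes much alike, with Pearson's r over probes of 0.975 for hearts 1 and 2, 0.976 for hearts 1 and 3 and 0.981 for hearts 2 and 3; probes of 1 array share its depth and are not independent points.

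The top of the ranking was held by genes of muscle contraction, of ATP production and of oxygen transport. The 20 genes with the highest mean signal were Hbb-bt, Slc25a4, Ptprz1, Mybpc3, Hba-a1, Hba-a2, Aldoa, Mb, Cox7a1, Myl2, Cox6a2, Tpm1, Mdh2, Myom2, Myl3, Atp5b, Atp5c1, Tcap, Crip2 and COX2. Brightness also depends on how well a probe binds, so a rank orders signals and not the copies of a transcript; among 4225 genes with several kept probes, the probes of one gene lay a median of 1.5 log2 units apart. Hbb-bt, the adult beta-globin gene that the array lists as Hbb-b1, read 16.71, 17.28 and 15.92 in hearts 1, 2 and 3, with ranks of 1, 4 and 4 within each heart. The probe was saturated on 1 heart. The probes of Ptprz1 and Mybpc3 were also saturated on 1 heart each and that of Aldoa on 2, so the levels of these 4 are lower bounds there. Slc25a4, the carrier that exchanges ADP and ATP across the inner mitochondrial membrane, read 16.50, 17.41 and 15.72. Heart 2 was the highest and heart 3 the lowest for both on this scale. Under quantile normalisation, which forces the 3 arrays onto 1 distribution, that order held for Slc25a4 (16.67, 16.97 and 16.50) and not for Hbb-bt (17.03, 16.87 and 16.87).

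Many but not all of the brightest probes had that order of the hearts. Over the 300 brightest probes the median shift from the mean of the 3 hearts was -0.03 in heart 1, 0.19 in heart 2 and -0.12 in heart 3, whereas over all kept probes it was 0.04, -0.03 and -0.01. Ranks within a heart are free of such a shift, except among saturated spots, which have no order. Mybpc3, cardiac myosin-binding protein C of the thick filament, had levels of 16.49, 16.60 and 15.99 in hearts 1, 2 and 3, and in heart 3 it stood level with Aldoa at the ceiling of the scan. Myl2, the ventricular regulatory light chain, ranked 13, 24 and 8 in hearts 1, 2 and 3 with levels of 16.24, 16.37 and 15.78. Mb, which encodes myoglobin, ranked 9, 15 and 17 with levels of 16.36, 16.59 and 15.61. Under quantile normalisation Mb read 16.55, 16.43 and 16.31, and heart 3 was the highest for Myl2 (16.45, 16.24 and 16.58). The order of the hearts at the top of the scale thus changed with the normalisation.

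**Figure D1:**
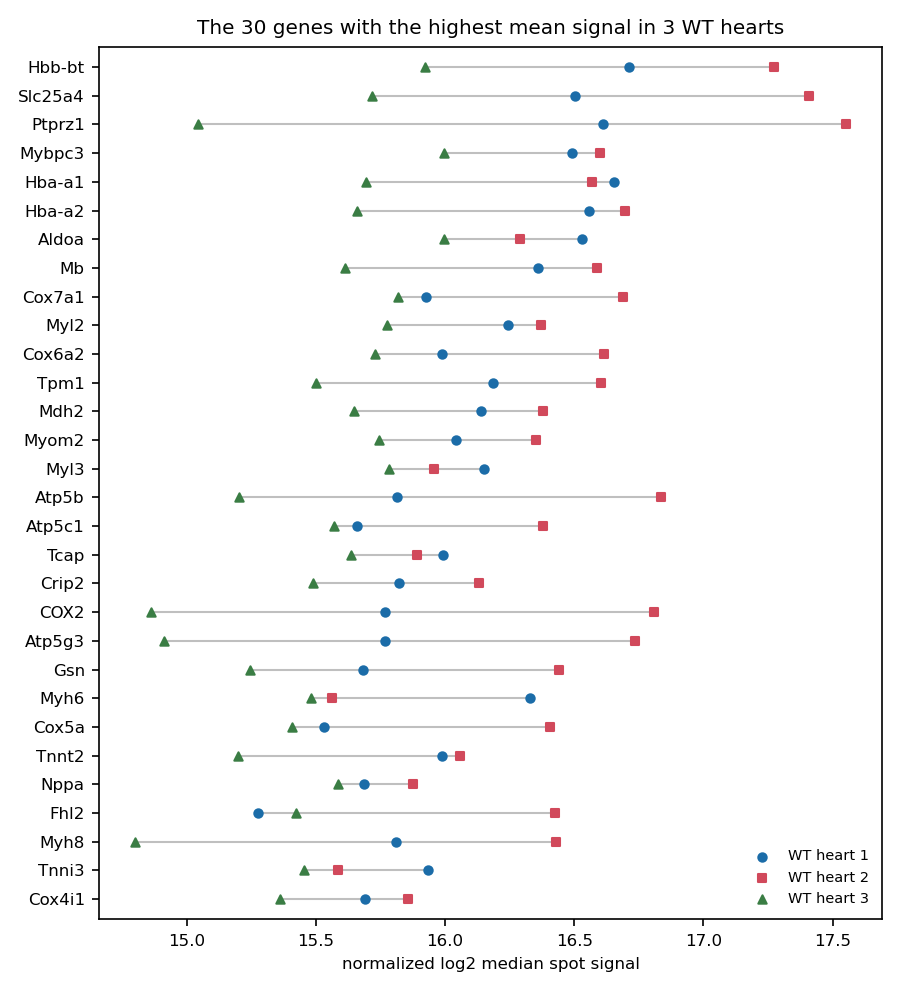
Normalized log2 median spot signal (horizontal axis) of the 30 named genes with the highest mean, with 1 symbol per WT heart and a grey line over their range. On this scale heart 3 (green triangles) is the lowest for most of these genes, among them Ptprz1 at 15.04 and COX2 at 14.86, but under quantile normalisation it is the highest for many of them, Myl2, Myl3, Nppa, Cox7a1, Mdh2 and Tcap included.

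The 300 brightest probes had mean levels from 13.34 to 16.64, and the probe just outside stood at 13.34. They represented 252 named genes, which is 2.06% of the 12256 kept genes, together with 21 probes that could not be named through the RefSeq table used here. The same 300 places were filled by 238 probes in every heart, and 361 probes held a place in at least 1 heart. The top 300 carried 42.3% ± 5.24 (SD, n = 3) of the summed normalized signal, with 41.6%, 47.8% and 37.4% in hearts 1, 2 and 3, and the top 10 alone carried 4.59% ± 1.32 (SD, n = 3). Within the top 300 the ranks of hearts 1 and 2 were the most alike (Spearman's rho 0.862) and those of hearts 2 and 3 the least (0.748), over the same probes.

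Contractile genes filled many of the first places. Of 48 genes of the sarcomere and Z-disc list, all 48 were kept and 20 (41.7%) were in the top 300, beside 2.06% of all kept genes. The thick filament was represented by Myh6, the adult alpha myosin heavy chain (16.33, 15.56 and 15.48 in hearts 1, 2 and 3), by Mybpc3 and by the light chains Myl2 and Myl3. The thin filament was represented by Actc1, cardiac alpha-actin (14.87, 15.08 and 14.60), by Tpm1, tropomyosin, and by the troponins Tnnt2 (15.99, 16.06 and 15.20), Tnni3 (15.93, 15.59 and 15.45) and Tnnc1 (13.57, 12.90 and 13.71). Of the Z-disc, Tcap, telethonin, read 15.99, 15.89 and 15.64, and Csrp3, muscle LIM protein, read 14.18, 13.99 and 14.07. Calcium handling had 4 of 21 kept genes in the top 300 (19%). These were Atp2a2, the calcium pump of the sarcoplasmic reticulum (15.05, 15.15 and 14.81), its inhibitors Pln (13.43, 13.48 and 13.64) and Sln (14.11, 14.71 and 13.93), and Hrc, a calcium-binding protein of the reticulum (14.57, 14.05 and 14.19). Ryr2, the release channel, was kept at a lower signal of 11.51, 11.30 and 11.31.

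The respiratory chain and ATP synthase filled more places than any other list examined here. Of 93 such genes with a probe, 90 were kept, and 59 of those 90 (65.6%) were in the top 300. Cox7a1 and Cox6a2, the heart and muscle isoforms of cytochrome c oxidase subunits, read 15.93, 16.69 and 15.82 and 15.99, 16.62 and 15.73 in hearts 1, 2 and 3. Atp5b, the catalytic beta subunit of ATP synthase, read 15.82, 16.84 and 15.20 at its brightest probe, whereas its other kept probes were highest in heart 1 and lowest in heart 2 (14.63, 13.64 and 13.93, and 12.13, 11.01 and 11.44). All 3 mitochondrially encoded genes with a probe were in the top 300, and each was highest in heart 2 and lowest in heart 3. Among them COX2, a core subunit of cytochrome c oxidase, read 15.77, 16.81 and 14.86. The pathways that feed the chain were also represented. Of 28 kept genes of the tricarboxylic acid cycle and ketone use, 12 (42.9%) were in the top 300, among them Mdh2, mitochondrial malate dehydrogenase (16.14, 16.38 and 15.65), Cs, citrate synthase (15.43, 15.58 and 15.24), and Oxct1, which activates ketone bodies (15.12, 15.54 and 14.82). Fatty acid oxidation and uptake had 11 of 26 kept genes there (42.3%). The brightest of these were Etfb, an electron carrier (15.29, 15.60 and 15.19), Acadvl, the very-long-chain acyl-CoA dehydrogenase (15.43, 15.67 and 14.97), and Lpl, lipoprotein lipase (14.98, 15.61 and 15.00). Fabp3, the fatty acid-binding protein of muscle, read 16.54 and 15.51 in hearts 2 and 3 but was not kept, because its spot on heart 1 was marked as an outlier by the scanner software.

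Glycolysis, glycogen and creatine had 11 of 25 kept genes in the top 300 (44%), among them Ldhb, the heart-type lactate dehydrogenase (15.74, 15.44 and 15.28 in hearts 1, 2 and 3), and Ckmt2, mitochondrial creatine kinase (15.35, 15.32 and 15.44). Aldoa, the muscle aldolase, read 16.53, 16.29 and 15.99 at the probe that was saturated on 2 hearts and 16.21, 16.17 and 15.89 at a probe that was not. The glucose transporter of muscle and fat, Slc2a4, read 13.72, 14.39 and 13.74, and Slc2a1, the ubiquitous one, read 9.05, 9.31 and 8.79. Oxygen and iron had 4 of 7 kept genes in the top 300 (57.1%), the globins, myoglobin and Fth1, ferritin heavy chain. Cytosolic ribosomal proteins had 32 of 85 (37.6%). Of the translation factors 66 were kept and 1, Eif1, was in the top 300 (1.52%), near the share of all kept genes. The antioxidant list had 4 of 18 (22.2%), with Sod2 of the mitochondrion at 14.86, 14.64 and 14.63 and cytosolic Sod1 at 14.19, 14.15 and 13.99. The endothelial, MHC, interferon and cell cycle lists, with 14, 16, 20 and 10 kept genes, had none there; at the 2.06% of all kept genes, lists of this size hold few or none.

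**Figure D2:**
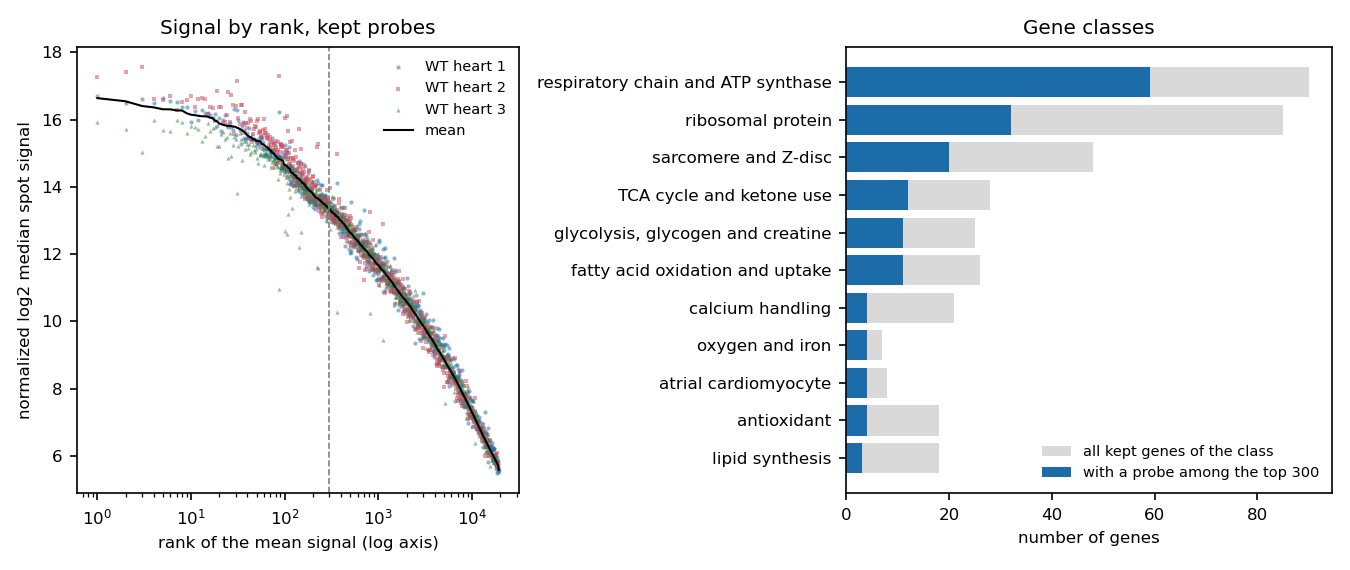
Left, normalized log2 median spot signal of kept probes against the rank of their mean (log axis), for a thinned series of ranks, with 1 symbol per WT heart, the mean as a black line and rank 300 as a dashed line. Right, number of genes of each class that were kept (grey) and that had a probe among the top 300 (blue), led by the respiratory chain and ATP synthase with 59 of 90.

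Some of the brightest signals rested on 1 probe of a gene whose other probes were at background. Ptprz1, a receptor phosphatase known from glial cells, ranked 3 through 1 probe at 16.61, 17.55 and 15.04 in hearts 1, 2 and 3. Its other 3 probes had means of 5.58, 5.48 and 5.31 and passed the background call on at most 1 heart. Myh8, the perinatal skeletal myosin heavy chain, ranked 35 through 1 of its 4 probes at 15.81, 16.43 and 14.80, with the other 3 at means of 5.38, 5.35 and 5.35 and called on no heart. Myh4, the fast skeletal heavy chain, had 1 probe at 14.95, 15.33 and 14.23 and the other at 5.34, 5.38 and 5.27. Whether such probes also bind other myosin heavy chain transcripts was not tested. Fhl2, a LIM protein of the Z-disc, likewise had 1 probe at 15.27, 16.42 and 15.42 and another pair with means of 5.39 and 5.33. In all, 30 of the 117 genes of the top 300 that had several probes had at least 1 that was not kept (25.6%), against 3863 of 6815 such genes among all kept genes (56.7%).

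Promoter windows were searched for short motifs, as a description of what the brightest genes share in sequence. RefSeq windows of 300 bases, 250 before the annotated start and 50 after it (build GRCm38.p6), were at hand for 198 of the 252 named genes of the top 300 and for 27025 genes in all. The searches, on both strands, were for the CArG box bound by serum response factor, for the MEF2 site, for GCGCATG (part of the site bound by NRF1), for CGGAAG (the core of ETS-family sites) and for TATAAA. MEF2 and CArG matches shared bases with TATAAA in 226 and 19 windows, GCGCATG shared bases with CGGAAG in 2, and no other pair overlapped. A CArG box lay in 4 of 17 windowed sarcomere genes of the top 300 (23.5%), against 1.81% of all genes, and a MEF2 site in 3 of 17 (17.6%), against 3.70%. Neither motif was found in the 49 respiratory chain genes or in the 22 ribosomal protein genes of the top 300 that had a window, where the shares over all genes would give few or none. CGGAAG was present in 20 of those 49 (40.8%) and in 16 of those 22 (72.7%), against 18.8% of all genes. It was also in 6 of 11 genes of the tricarboxylic acid cycle and ketone use (54.5%), and in 63 of 198 genes of the top 300 (31.8%). It was in 2 of 17 sarcomere genes (11.8%), 1 of 8 genes of fatty acid oxidation (12.5%) and 2 of 10 of glycolysis (20%). GCGCATG was present in 9 of 49 (18.4%) and in 4 of 22 (18.2%), against 4.41% of all genes. It was in 2 of 8 genes of fatty acid oxidation (25%), 1 of 11 of the tricarboxylic acid list (9.09%) and no sarcomere or glycolysis gene. TATAAA was as frequent in the top 300 (30 of 198, 15.2%) as over all genes (15.7%). A match is a string of letters and does not show that a factor binds there.

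To show these motifs in place, the promoter of the brightest gene of the top 300 with each motif is printed 5′ to 3′, with the named motif in capitals. The windows are chr9:110763428-110763727 (plus strand) for Myl3, with its CArG box 85 bases before the start; chr2:91117894-91118193 (plus) for Mybpc3, with a MEF2 site 90 bases before it; chr5:115559217-115559516 (plus) for Rplp0, a ribosomal stalk protein, with GCGCATG 78 bases before it; chr8:46211013-46211312 (minus) for Slc25a4, with CGGAAG 129 bases before it; and chr7:103813874-103814173 (minus) for Hbb-bt, with TATAAA 28 bases before it.
Myl3: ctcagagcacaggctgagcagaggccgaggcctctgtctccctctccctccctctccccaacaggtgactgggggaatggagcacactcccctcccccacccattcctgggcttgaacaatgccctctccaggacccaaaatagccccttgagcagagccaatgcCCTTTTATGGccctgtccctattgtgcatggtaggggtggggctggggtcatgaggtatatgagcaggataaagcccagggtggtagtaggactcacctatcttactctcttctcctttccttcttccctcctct
Mybpc3: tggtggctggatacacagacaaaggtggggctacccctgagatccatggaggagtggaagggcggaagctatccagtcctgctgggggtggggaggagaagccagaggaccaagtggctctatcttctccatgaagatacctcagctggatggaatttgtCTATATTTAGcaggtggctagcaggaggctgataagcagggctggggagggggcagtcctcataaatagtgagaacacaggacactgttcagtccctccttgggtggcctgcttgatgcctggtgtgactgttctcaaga
Rplp0: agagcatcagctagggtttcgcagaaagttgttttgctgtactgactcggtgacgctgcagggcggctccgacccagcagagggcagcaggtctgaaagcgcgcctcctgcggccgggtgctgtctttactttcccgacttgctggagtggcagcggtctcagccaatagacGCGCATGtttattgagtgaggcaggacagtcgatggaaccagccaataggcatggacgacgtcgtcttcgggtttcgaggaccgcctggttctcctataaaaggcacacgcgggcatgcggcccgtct
Slc25a4: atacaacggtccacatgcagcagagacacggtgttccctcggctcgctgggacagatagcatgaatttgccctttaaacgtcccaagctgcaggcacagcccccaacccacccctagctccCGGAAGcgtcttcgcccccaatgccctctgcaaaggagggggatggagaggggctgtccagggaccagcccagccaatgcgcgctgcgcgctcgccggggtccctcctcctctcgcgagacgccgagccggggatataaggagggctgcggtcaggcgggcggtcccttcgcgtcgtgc
Hbb-bt: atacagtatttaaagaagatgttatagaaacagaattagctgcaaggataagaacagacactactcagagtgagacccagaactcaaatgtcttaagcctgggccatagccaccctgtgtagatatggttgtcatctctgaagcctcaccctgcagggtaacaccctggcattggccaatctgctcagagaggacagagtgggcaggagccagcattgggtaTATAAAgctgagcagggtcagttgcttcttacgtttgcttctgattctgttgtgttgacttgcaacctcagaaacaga

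Marker lists were used to describe the tissues, although a kept call near background does not by itself show that a tissue was present. All 20 cardiomyocyte markers with a probe were kept, beside 62.0% of all named genes, and 12 of them were in the top 300. The transcription factors of the lineage were far dimmer than its contractile genes, with Nkx2-5 at 10.39, 10.28 and 10.28 in hearts 1, 2 and 3, Tbx20 at 7.58, 7.02 and 7.65, and Gata4 at 6.18, 5.93 and 5.95. All 4 ventricular markers and all 8 atrial markers were kept. Among the atrial genes Nppa, atrial natriuretic peptide, read 15.69, 15.88 and 15.59, and Myl7, the atrial regulatory light chain, read 14.57, 15.20 and 14.62. Nppa is also on the list of cardiac stress and fetal genes used here. Whether this RNA came from atrium was not tested. Bmp10, a growth factor of the atria, was close to background at 6.28, 6.08 and 5.83. Of 8 conduction system markers 6 were kept, with Tbx3 at 8.94, 9.04 and 8.89 and the pacemaker channel Hcn4 at 6.47, 6.04 and 5.67. Shox2 and Isl1, which mark the sinoatrial node, were well above background on no heart.

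Every listed marker of 6 further cell types was kept, 13 of 13 for fibroblasts, 14 of 14 for endothelium, 8 of 8 for pericytes, 7 of 7 for smooth muscle, 13 of 13 for macrophages and 12 of 12 for epicardium and mesothelium. The fibroblast list had 2 genes in the top 300, Gsn, gelsolin, at 15.68, 16.44 and 15.25 in hearts 1, 2 and 3, and Dcn, the matrix proteoglycan decorin, at 13.84 ± 0.25 (SD, n = 3). Tcf21, the factor that marks resident cardiac fibroblasts, read 7.31, 7.46 and 7.07. Among endothelial genes Flt1, a receptor for VEGF, read 12.24, 12.66 and 11.96, Aqp1, a water channel, read 12.14, 12.96 and 12.36, and Pecam1, a junctional adhesion protein, read 7.49 ± 0.44 (SD, n = 3). Rgs5 of pericytes read 11.24, 10.32 and 10.44, with heart 1 the highest. Smooth muscle had 7 kept genes with a median SD of 0.46, above the 0.20 of all kept probes, and its members did not move together: Myh11 was highest in heart 1 (8.87, 8.29 and 7.55), whereas Cnn1, calponin, was highest in heart 2 (8.46, 9.93 and 8.65). Lyz2, lysozyme of macrophages, read 13.52, 14.31 and 13.54, and the resident macrophage gene Lyve1, also a marker of lymphatic vessels, read 7.66, 9.11 and 8.50. Msln, mesothelin of the epicardial surface, read 10.18, 10.51 and 10.24, and Wt1 read 6.61, 6.46 and 6.53.

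Fat was represented by both white and brown markers. Of 8 adipocyte markers with a probe 7 were kept, beside 62.0% of all named genes, and Lep, leptin, was well above background on 1 heart. Adipoq, adiponectin, read 11.31, 10.91 and 10.91 in hearts 1, 2 and 3, Plin1, which coats lipid droplets, read 10.96, 10.90 and 10.51, and Cfd, adipsin, read 13.85, 14.29 and 13.73. Fabp4, which adipocytes share with capillary endothelium, read 15.43, 15.72 and 15.09. Of 7 brown adipocyte markers 6 were kept. Ucp1, the uncoupling protein specific to thermogenic fat, read 12.97, 11.83 and 12.98, and Cidea, a lipid droplet protein of brown fat, read 14.40, 13.75 and 13.65. Heart 2 was the lowest for Ucp1 by more than 1 log2 unit. Zic1, a developmental marker of brown fat, was well above background on no heart. Pparg, the receptor that drives fat cell differentiation, read 9.55, 9.28 and 9.44, with an SD of 0.14. Which depot this RNA came from was not tested.

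Blood and immune markers were kept unevenly, beside 62.0% of all named genes. Of 6 erythroid genes 4 were kept, and besides the globins Alas2, the first enzyme of heme synthesis in red cells, read 13.12, 11.54 and 11.86 in hearts 1, 2 and 3, and Slc4a1, the anion exchanger of the red cell membrane, read 8.69, 7.83 and 7.62. Heart 1 was the highest for both. All 4 platelet markers were kept, with Pf4, platelet factor 4, at 10.23, 10.15 and 10.17. Of 6 B cell markers 3 were kept, and each was highest in heart 1 and lowest in heart 2. Over all 19271 kept probes heart 1 was the highest in 8471. Cd79b, a part of the B cell receptor, read 8.19, 7.29 and 7.66. Only 2 of 10 T cell and thymus markers and 1 of 6 neutrophil markers were kept. The latter was S100a9, at 8.29, 7.85 and 9.40, with heart 3 the highest, while S100a8 was called on 2 hearts.

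Markers of other organs were mostly at background, with a few exceptions. Skeletal muscle had 5 of 12 markers kept, and Myh1, Myh2, Tnnt3 and Pvalb were well above background on no heart. Those kept were Acta1, Tnni2, Mybpc2, Atp2a1 and Myh4, the last through the single probe described above, and Atp2a1, the calcium pump of fast muscle, read 12.20, 11.21 and 10.94 through 1 of 2 probes. Brain neurons had 1 of 6 markers kept, pancreas 1 of 6, liver 1 of 5 and kidney 2 of 5. Testis had 3 of 5 kept (60%), beside 62.0% of all named genes, at a median level of 5.88 near the bottom of the scale. The liver gene was Ahsg, fetuin-A, at 8.86 ± 0.26 (SD, n = 3), while Apoa1 and Ttr were above background on no heart. Lung epithelium was called in heart 1 alone for 3 of 6 markers. Sftpc, the surfactant protein C gene of alveolar type II cells, read 9.71 in heart 1 and 5.39 and 5.40 in hearts 2 and 3. Sftpa1 read 6.44, 5.36 and 5.32 and Sftpd read 6.21, 5.38 and 5.36, whereas Sftpb and Nkx2-1 were above background on no heart. The Y-linked genes Ddx3y, Eif2s3y, Kdm5d and Uty were kept, 4 of 4, and Xist, which silences the second X chromosome of females, was above background in none, as for male animals.

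**Figure D3:**
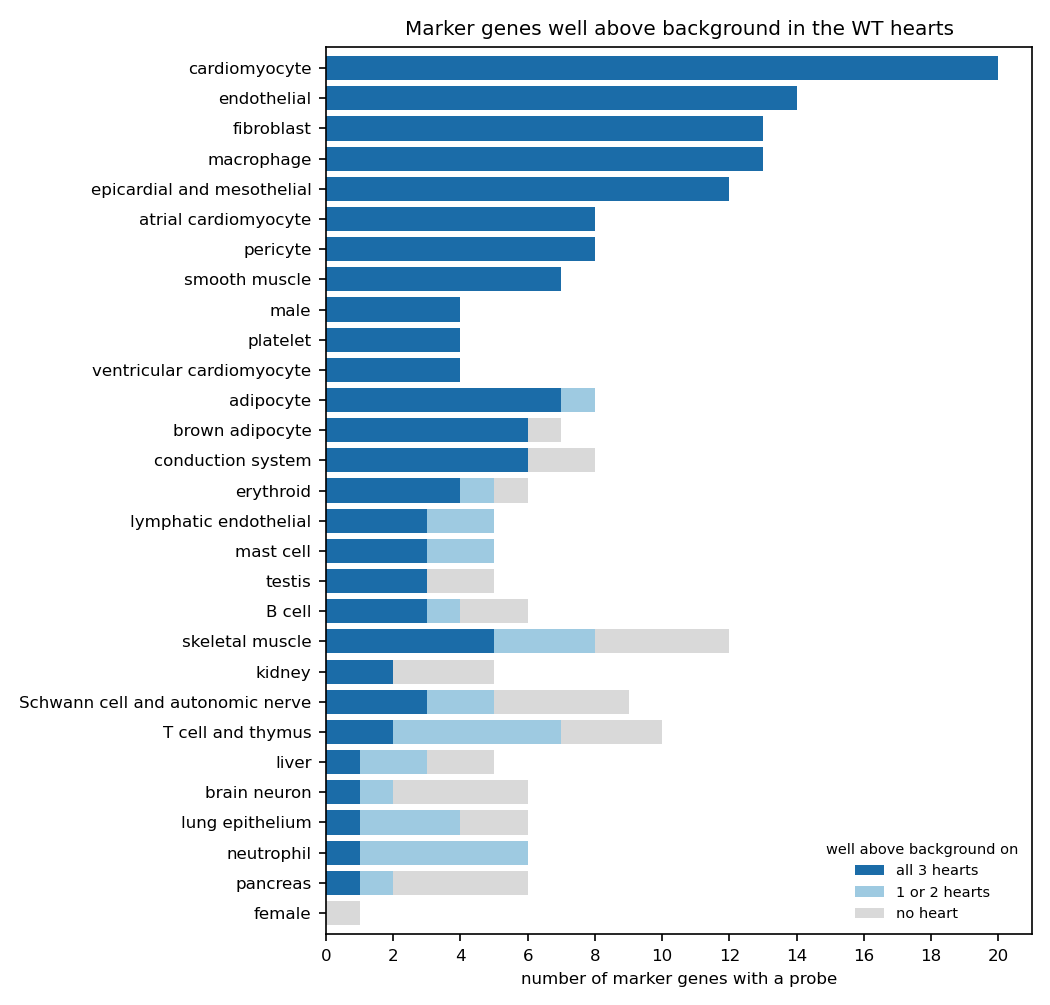
Number of marker genes per cell type or organ that were well above background on all 3 WT hearts (dark blue), on 1 or 2 hearts (light blue) and on no heart (grey). All markers were kept for cardiomyocytes (20 of 20), endothelium (14 of 14) and fibroblasts (13 of 13), while lung epithelium, pancreas and brain neurons each had 1 of 6.

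Other pathway lists lay at lower signal. Ion channels had 19 of 20 genes with a probe kept, with 2 in the top 300. Genes of cardiac stress and the fetal program had 14 of 16 kept. Nppb, the stress-induced natriuretic peptide, read 11.31, 11.34 and 11.94 in hearts 1, 2 and 3, and Myh7, the slow myosin that mice express before birth, read 12.73, 12.52 and 12.54, while Il6 and Tnc were above background on no heart. Collagens and matrix had 31 of 33 kept, with Col1a1 at 10.86, 11.89 and 11.10 and Col3a1 at 11.45, 11.45 and 11.65. Of 18 cell cycle genes 10 were kept (55.6%), beside 62.0% of all named genes. Top2a, Ccnb1, Aurkb, Bub1 and Kif11 were called on no heart. Immediate early genes had 22 of 24 kept. Fos, the classic early response gene, was called on 2 hearts at 5.79, 5.71 and 5.71. Of 18 clock genes 15 were kept, with Dbp, an output gene of the clock, in the top 300 at 13.83, 13.91 and 13.25; Arntl, a core activator of the clock, was called on 2 hearts and read 5.33, 6.10 and 6.80, and Per3, a repressor, was kept at 6.32, 5.77 and 5.52. Heart 1 was the lowest for Arntl and the highest for Per3, both near background. The time of day at which hearts were taken is not given in the sources used here.

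The 3 hearts differed little at most probes. The median SD among hearts was 0.20 log2 units over kept probes, the 90th percentile was 0.44, and 942 of 19271 probes (4.89%), in 761 genes, ranged over more than 1 log2 unit. With the arrays only scaled to their 75th percentile the median SD was 0.35 and 4546 probes passed that range, and without heart 1 the values were 0.12 and 257. In the TG-PKR1 hearts the median SD of the same probes was 0.23. Over 146 kept probes with several spots, the SD between hearts had a median of 0.22, against 0.06, 0.13 and 0.12 between spots of 1 array on hearts 1, 2 and 3, and the between-heart SD was the larger for 121 of them. The spread of spots leaves out labelling, hybridisation and scanning, which the spread between hearts includes. The SD grew from a median of 0.10 in the lowest decile of signal to 0.27 in the eighth and was 0.25 in the highest. Heart 1 stood apart from the other two more often than heart 2 or heart 3, as the highest in 27.9% and the lowest in 19.5% of kept probes, and it was the heart with the separate saturation level.

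The 100 most variable probes behaved otherwise. Their SD was at least 0.92, the probe just outside also read 0.92, and they were chosen by that SD, which is therefore given as a description. Heart 3 stood apart and low in 69 of the 100, against 11.9% of all kept probes, and in 64 of these 69 heart 2 was the highest. Lars2, the mitochondrial leucyl-tRNA synthetase, read 16.22, 17.30 and 10.96 in hearts 1, 2 and 3, an SD of 3.39. Cdk5r2, a neuronal activator of Cdk5, read 11.05, 12.46 and 6.46. H1f10, a linker histone, read 13.84, 14.89 and 9.74, and Rusc1, an adaptor protein, read 12.71, 14.02 and 9.13. The same order, heart 2 above heart 1 and heart 3 lowest by at least 3.05 log2 units from the top, held for Tfap2e, Synpo, E130304I02Rik, 9530080O11Rik, Syt10, Arl4d, Syn1, Klf2, Tfam, Grn, Cox17, Grin2d, Ptms, Foxq1 and Arid5b. These genes share no one role: Klf2 is a flow-responsive factor of endothelium, Tfam packages mitochondrial DNA, Cox17 delivers copper to cytochrome c oxidase, Grn encodes progranulin, and Syn1 and Syt10 are best known from neurons.

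The kept probes of the same genes that lay outside the 100 did not show so low a signal in heart 3, but the choice of the 100 limited what they could show. The 69 probes included 40 named through the RefSeq table, of 39 genes. For them heart 3 lay a median of -2.66 log2 units from the mean of hearts 1 and 2. The same genes had 32 further kept probes outside the 100, for 19 of the genes, and there the median difference was -0.03, from -0.60 to 0.53, and 2 of the 32 ranged over more than 1 log2 unit. Tfam had kept probes at 10.35, 9.69 and 10.55 and at 6.61, 6.25 and 6.19 beside the variable one at 12.15, 12.90 and 9.46. Rusc1 had another at 9.02, 8.83 and 9.26, Cox17 another at 13.53, 13.18 and 13.26, Arl4d another at 8.54, 8.95 and 8.72 and Klf2 another at 12.54, 12.44 and 11.89. For H1f10, Tfap2e, Syn1 and Syt10 the remaining probes were not well above background on all 3 hearts. Probes named for ribosomal RNA had heart 2 the highest and heart 3 the lowest. Those named Rn18s (18S rRNA) read 16.28, 17.16 and 13.83 and 8.96, 11.12 and 5.92, a further probe of the 18S rRNA gene region read 9.14, 9.94 and 6.52, and the probe of 28S rRNA (Rn28s1) read 7.98, 8.67 and 5.61. Other probes of the 100 placed close to that region on chromosome 17 were also lowest in heart 3. Heart 1 was above heart 2 for NAP112463-1 (10.29, 10.06 and 7.17) and BC071254 (10.15, 10.05 and 7.76), and below it for LOC673433, BC115496 and the AY036118 probes. Of the 100 probes 34 could not be named through the RefSeq table, those of Rn18s among them, against 7.96% of all kept probes, and 12 were in the top 300. The part of ribosomal RNA, or of the quality of any one RNA sample, in these differences was not tested.

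In the TG-PKR1 hearts, which had no part in the choice, the 100 probes had a median SD of 0.83, against 0.23 over all kept probes, and 97 of the 100 lay above that median. Those arrays were also scanned unequally, with a saturation level of 65265 units on 1 of them and of 559351 and 569418 on the others. For Cdk5r2 the SD there was 2.09, for Tfap2e 1.85 and for Rusc1 1.82, while Lars2, first among the WT hearts, had 0.67. Over all kept probes the SD of the WT hearts and that of the TG-PKR1 hearts had a Spearman's rho of 0.364, a description over probes that share 6 arrays.

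**Figure D4:**
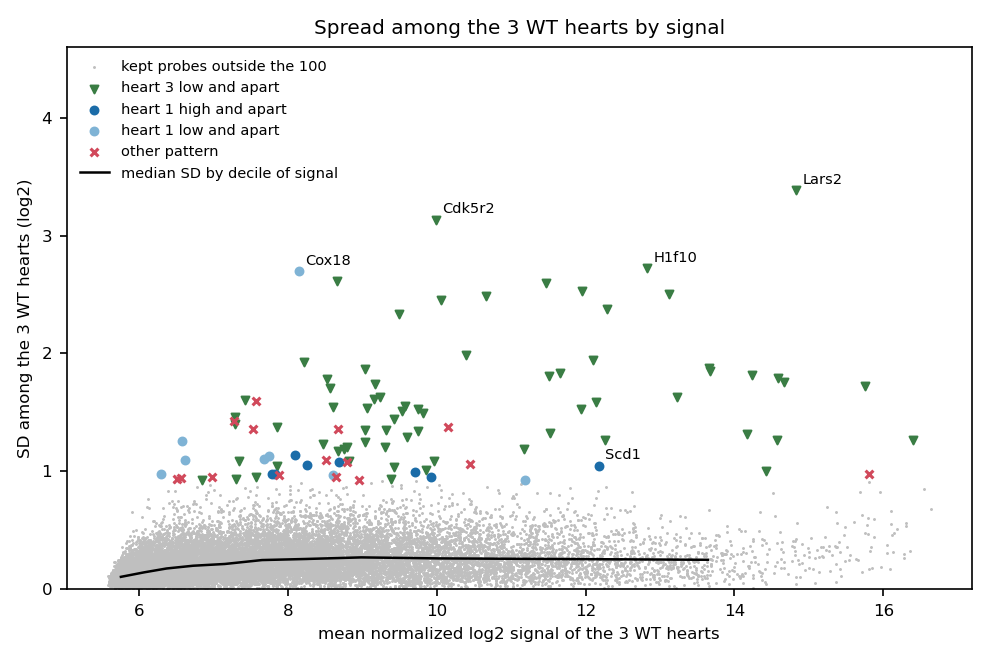
SD among the 3 WT hearts against the mean normalized log2 signal of each kept probe (grey points), with the 100 most variable probes marked by which heart stood apart and the median SD by decile of signal as a black line. Most of the 100 (69) are probes for which heart 3 was low and apart (green), led by Lars2 with an SD of 3.39.

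The remaining 31 probes of the 100 had other patterns. Heart 1 stood apart and low in 8 and apart and high in 8. Cox18, an assembly factor of cytochrome c oxidase, read 5.05, 9.97 and 9.43 in hearts 1, 2 and 3, but its other probe read 9.11, 10.02 and 9.55. Scd1, the desaturase that makes monounsaturated fatty acids, read 13.31, 11.24 and 11.98, and its SD among the TG-PKR1 hearts was 0.39. Fasn, fatty acid synthase, showed the same order at a dim probe (9.79, 7.97 and 9.13) and at its bright probe (15.44, 14.57 and 15.05). Immunoglobulin genes were among the 100 as well, with an Igh probe at 9.11, 7.25 and 9.18 and Iglv1 at 8.83, 6.89 and 7.78, heart 2 being the lowest for both. Heart 2 was the highest for Saa1, an acute phase protein (6.50, 8.08 and 6.38). Heart 3 was the highest for Srrm3 (6.01, 7.51 and 9.20), Pinx1 and Stra6, the receptor for retinol-binding protein. Ccnd2, cyclin D2, was lowest in heart 2 (11.44, 9.34 and 10.58).

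The median level of some gene lists differed between the hearts more than that of others. For each list the median over its kept genes of the difference from the mean of the 3 hearts was taken in each heart, and the range of these 3 medians is given. Among lists with at least 3 kept genes it was widest for the 3 mitochondrially encoded genes, 1.63 log2 units, from 0.83 in heart 2 to -0.80 in heart 3. Erythroid genes followed with 1.02, from 0.50 in heart 1 to -0.52 in heart 3, over 4 genes of which 3 were lowest in heart 3. The oxygen and iron list had 0.68 over 7 genes, 5 of them lowest in heart 3, with 0.09 to 0.74 over the alternative settings. The B cell list had 0.66 over 3 genes, with 0.13 to 1.26 over the alternative settings. MHC and antigen presentation had 0.60 over 16 genes, 14 of which were highest in heart 1 and 11 lowest in heart 2. Over all 19271 kept probes, heart 1 was the highest in 8471 and heart 2 the lowest in 7148, while heart 3 was the highest in 5653 and the lowest in 5694. Without heart 1 the MHC range was 0.08, and without heart 2 that of the mitochondrially encoded genes was 0.77. The erythroid range was 0.66 under quantile normalisation and 0.43 without heart 3. H2-D1, a classical class I gene, read 12.87, 12.17 and 11.70, and the immunoproteasome subunit Psmb8 read 9.42, 8.24 and 9.16. The interferon list did not share that order, since 12 of its 20 genes were highest in heart 3. Lipid synthesis had 0.44 over 18 genes, 12 of them highest in heart 1 and 11 lowest in heart 2, and 0.16 without heart 1 or without heart 2, and the brown adipocyte list 0.48 with the same highest and lowest heart, and 0.20 to 0.79 over the alternatives. The sarcomere list had a range of 0.22 over 48 genes, the respiratory chain 0.12 over 90 and the ribosomal proteins 0.18 over 85. With 75th percentile scaling these ranges were 0.65, 0.52 and 0.54. The short lists rest on few genes, and the part of the array in any of these differences was not tested.

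**Figure D5:**
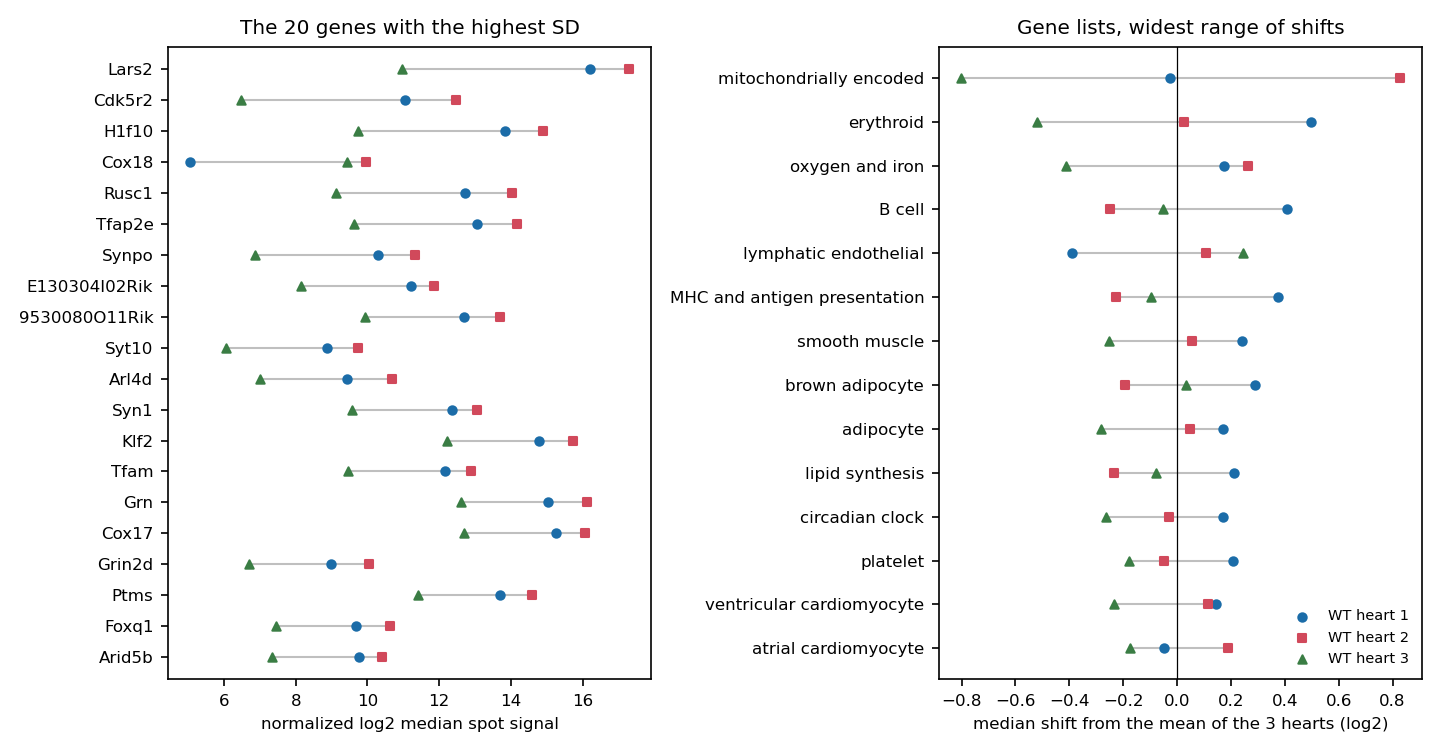
Left, normalized log2 signal of the 20 genes with the highest SD among the 3 WT hearts, with 1 symbol per heart; heart 3 is the lowest for 19 of the 20, Cox18 being the exception. Right, median shift of the gene lists (at least 3 kept genes) with the widest range between hearts, led by the mitochondrially encoded genes with 1.63 log2 units and the erythroid genes with 1.02.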

How the data were processed

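Total RNA of each heart was labelled with Cy3 and hybridised to a one-colour Agilent mouse array. Per the file headers, the authors scanned and extracted spots with Agilent Feature Extraction 9.5.1.1, and the deposited scanner tables hold spot intensity without normalization, with probe positions on build mm8. A second deposited table holds the authors' log2 values for 19996 probes, LOWESS-adjusted to the median profile of all samples and filtered on signal; it was used as an alternative, and 18877 of its probes were among those kept. Control spots and outlier spots were left out, spots were averaged per probe, and log2 median intensities were adjusted by loess to the median profile of the 3 WT arrays (limma 3.58.1 in R 4.3.3, span 0.3, 4 iterations). A probe was kept if well above background on all 3 hearts. Counts, SDs and ranks were computed in Python 3.11.15 with pandas 2.3.3 and numpy 2.4.6, and tested on simulated data. Probes were named through RefSeq, 24496 by accession and 8620 by symbol or synonym, and 8058 keep the array's name. A gene's level is that of its brightest kept probe.

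The genes named were the 20 brightest, the 20 most variable not saturated on any WT array, and of each list 2 to 4 members with the highest signal, the highest SD or no call above background. Others, among them Myh8, Fhl2, Pinx1, Saa1 and further list members, were chosen after their values were seen. The members and lists were chosen with earlier results of these data known. The promoter motifs were chosen after the levels were known, and a longer form of the NRF1 motif was searched first. Alternatives covered scaling, background correction, filters, the authors' table and leaving out each heart. Nothing in the labels says whether the hearts were handled on 1 day. A few genes are not reported here.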

Additional observations from a re-analysis of the deposited data

How the results depend on the processing

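The spread among hearts depended on the processing more than the ranking did. The median SD of 0.204 became 0.346 with 75th percentile scaling, 0.313 with the processed signal so scaled and 0.0821 over all probes other than controls, and was 0.122 to 0.167 when 1 heart was left out, lowest without heart 1. The 942 probes that ranged over more than 1 log2 unit became 4546 and 3138 under those scalings, and 257 without heart 1, 428 without heart 2 and 438 without heart 3, where fewer samples were compared by construction. Without heart 3 the list of the 100 most variable probes shared 24 with the reported one, and without heart 1 or 2 it shared 79 or 78. In the settings that could give them, the probes kept numbered 19264 to 21842, those in the top 300 of every heart 236 to 261, and those of the 100 with heart 3 apart and low 59 to 74, a measure chosen after seeing the data. The range of list medians also moved, from 0.0838 to 0.968 for MHC genes and from 0.774 to 1.65 for the mitochondrially encoded genes. The order of the hearts was not recomputed under each setting. No paired analysis was possible because the hearts form 1 group. With 3 arrays the precision is limited, and dim probes near background, most of all on heart 2 with its low signal, carry little information on level.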
